A study of Homo sapiens with 2 samples.

Results

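The genes described here build the early secretory pathway: the signal recognition particle, the Sec61 translocon, the SEC11 signal peptidase subunits, the COPII and COPI vesicle coats, the p24 and lectin cargo receptors, the KDEL receptors, SEC22 SNAREs and the TRAPP tethers. They were found by symbol, from the fixed stems SEC11 to SEC63, SSR, SRP, TMED, TRAPPC and COP. To these, 9 exact symbols such as SAR1A and LMAN1 were added. The rule itself used no measured value, but the members were chosen with earlier results of these data known. The rule found 75 of 22595 gene symbols, of which 74 were measured, meaning at least 20 counts over both libraries. The remaining symbol, the pseudogene TMED11P, was listed at 0 in both.

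The measurements came from RNA-seq of 786-O, an established line from a human clear cell renal carcinoma that has lost functional VHL. One culture received medium with 25 mM glucose and the other medium with 0 mM glucose, and each gave 1 library. Both were total RNA. How long glucose was withheld is not stated in the labels. The libraries held 27317598 and 31345853 counts. With n = 1 per condition there is no replicate check and no test, so higher and lower describe these libraries. In bulk RNA, fewer cells with a transcript and less of it per cell cannot be told apart. CPM means counts per 1000000 of the TMM-scaled library. Of the 9 renal markers measured, the kidney factor PAX8 had 244 and 232 CPM, with and without glucose in that order here and below, KRT18 had 151 and 137, and VIM had 4336 and 5791. Others differed by more than 2-fold, with 192 and 8.36 CPM for CDH6 and 134 and 422 for EPAS1. CA9, a marker of this carcinoma, had only 4 and 0 counts. Leukocyte and endothelial markers were near the floor, with 9 and 4 counts for PTPRC and 5 and 1 for PECAM1, and 8 of 13 markers of other cell types were not measured. The highest of the measured ones was LUM, a fibroblast marker, at 10.6 and 3.25 CPM.

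Proteins bound for the cell surface, the lysosome or secretion are recognised as their signal peptide leaves the ribosome, and the signal recognition particle docks them at the Sec61 channel of the endoplasmic reticulum (ER). The signal peptide is cut off inside the ER, and folded cargo leaves in COPII vesicles, partly held by cargo receptors. COPI vesicles carry receptors and escaped ER chaperones back from the Golgi. Lack of glucose limits the sugars of N-glycans and is a classic cause of ER stress, in which many genes of this pathway are known targets of XBP1 and ATF6.

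Most of the pathway differed by less than 2-fold between the libraries, and most classes held members with ratios above and below equal. No class held calls in both directions. Transcripts of 2 ER subunits stood well above 2-fold without glucose, SEC11C of the signal peptidase at 5.98-fold and SSR4 of the translocon at 2.41-fold. At a smaller bound of 1.5-fold, the cargo receptors LMAN1, LMAN2 and MCFD2 were called higher, and SEC23A, SEC24A and SAR1A of the COPII coat were called lower. Of the 12 measured p24 symbols 1 was called higher, and the KDEL receptors passed no bound. A gene was called when its whole 95% counting interval lay past 2-fold. By that bound 2 of 74 measured members (2.7%) were called higher, against 3.75% of all 14240 measured genes, and 0 members were called lower, against 6.20%. With at least 1000 counts, where intervals are narrow, 2 of 64 members were called higher and 0 lower, against 3.46% and 5.91% of 8345 genes.

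At a bound of 1.5-fold, 9 members (12.2%) were called higher, against 10.2% of measured genes, and 3 (4.05%) lower, against 12.6%. The 9 higher were SEC11C, SSR4, SEC63, SSR3, LMAN1, LMAN2, MCFD2, TMED1 and TRAPPC2L. Lower were SEC23A, SEC24A and SAR1A, all of the COPII coat. With total-count scaling or DESeq2 size factors 4 were called lower, with SRP9 of the signal recognition particle added. The member shares called higher at both bounds lay near those of all genes. The median log2 ratio of the members was 0.18 (quartiles -0.11 and 0.48), beside 0.01 for all measured genes (quartiles -0.45 and 0.42). The summed member counts were 1.106% of the library with glucose (95% Wilson interval 1.102 to 1.110%) and 1.224% of the other (1.221 to 1.228%), counting error only.

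**Figure D1:**
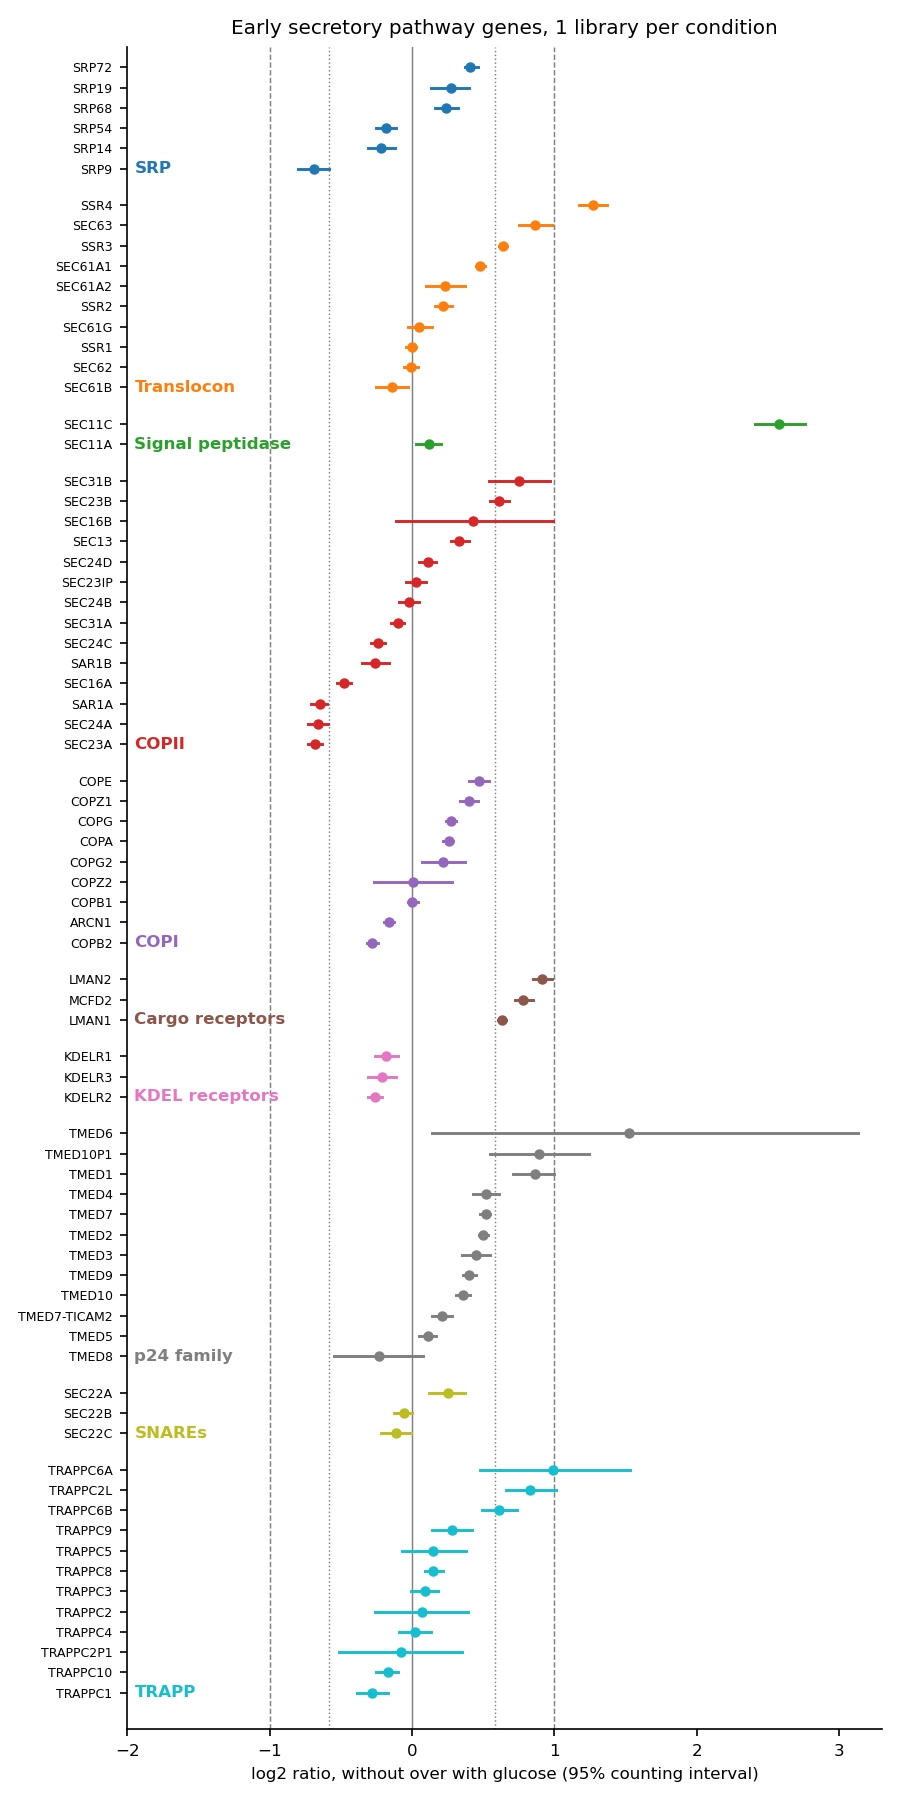
The log2 ratio (without over with glucose) for the 74 measured members by class, as points with 95% counting intervals; dashed lines mark 2-fold and dotted lines 1.5-fold. SEC11C at 2.58 and SSR4 at 1.27 are the members whose whole intervals lie past 2-fold, and the 3 KDEL receptors lie below 0.

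The signal recognition particle binds the signal peptide through SRP54 and, at its other end, slows the ribosome through SRP9 and SRP14. None of its 6 protein genes was called at either bound, and their median log2 ratio was 0.03. SRP9 stood at 58.9 and 36.6 CPM, a log2 ratio of -0.69 (interval -0.80 to -0.58). SRP14, its partner in the Alu domain, stood at 63.7 and 54.9 CPM (-0.22). Both genes of that domain were thus lower without glucose, and SRP9 was the lowest of all 74 members, although its interval reached just inside 1.5-fold. With total-count scaling or DESeq2 size factors, SRP9 was called lower at that bound. Of SRP9's 50-base runs, 11.9% also occur in the copy SRP9P1, so its counts are uncertain.

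The S domain of the particle was mixed. SRP72, which with SRP68 holds the RNA, stood at 242 and 322 CPM (0.41, interval 0.37 to 0.46), the highest ratio of the particle. SRP68 and SRP19 had log2 ratios of 0.24 and 0.27, and SRP54, the GTPase that recognises the signal, stood at 116 and 102 CPM (-0.18). Outside the member rule, the receptor genes SRPR and SRPRB, named after their values were seen, had log2 ratios of 0.36 and 0.42. The RNA of the particle had no entry under the symbols searched.

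The translocon genes had a median log2 ratio of 0.23 over 10 members, with 1 called higher at 2-fold, 3 at 1.5-fold and 0 lower. SSR4 encodes the delta subunit of the TRAP complex, which sits beside Sec61 and helps weak signal peptides to insert. It had 1215 counts with glucose and 3232 without, 43.6 and 105 CPM, a 2.41-fold difference (interval 2.26 to 2.58). The other TRAP subunits differed less. SSR3 stood at 574 and 893 CPM (log2 ratio 0.64; its 1.5-fold call was lost with total-count scaling), SSR2 at 150 and 174 CPM (0.22), and SSR1 at 436 CPM in both. The 4 subunits of one complex therefore ranged from equal to more than 2-fold higher, with only SSR4 and SSR3 called at 1.5-fold.

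SEC63, the membrane J-domain protein that brings the chaperone BiP to the channel, stood at 33 and 59.9 CPM (1.82-fold, interval 1.68 to 1.97). Its partner SEC62 stood at 199 and 198 CPM, with an interval of the log2 ratio from -0.06 to 0.04. The pair that acts together at the channel was therefore not higher together, since the SEC62 interval lay wholly below that of SEC63. SEC61A1, the channel itself, stood at 492 and 685 CPM (0.48), and its less counted paralog SEC61A2 at 30 and 35.3 CPM (0.23). The small subunits SEC61G (74.7 and 77.5 CPM, 0.05) and SEC61B (50.2 and 45.6 CPM, -0.14) stayed close to equal. SEC61B had the lowest ratio of the class.

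SEC11A and SEC11C are alternative catalytic subunits of the signal peptidase complex, which removes signal peptides. SEC11C had 307 counts with glucose and 2028 without, 11 and 66 CPM, a 5.98-fold difference (interval 5.3 to 6.77, log2 ratio 2.58). Only 0.772% of measured genes had a higher ratio. SEC11A stood at 70.2 and 76 CPM, a log2 ratio of 0.12. Per kilobase of gene model, SEC11C was 21.8% of the summed SEC11 level with glucose and 60.7% without, so the order of the paralogs was reversed on that scale. In CPM, not divided by length, SEC11C stayed below SEC11A without glucose, at 66 against 76. Taken within each library, the ratio of SEC11C to SEC11A was 5.52-fold higher without glucose (95% Wald interval 4.83 to 6.32), a value that does not depend on the scaling. The deposited tables give more than 10 reads in 5 of 6 SEC11C exons with glucose and in 6 of 6 without. Of its 50-base runs, 0.0434% occur in other genes, against 11.2% for SEC11A, whose counts are therefore less certain, as are the shares and the ratio of the pair.

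The 2 members past 2-fold are shown by the 100 bases before their annotated starts, in RefSeq's GRCh38.p14 sequence on the gene's strand, 5′ to 3′. In hg19, the build of the count tables, SEC11C lies on chromosome 18 from 56807125 to 56826063 and SSR4 on chromosome X from 153060094 to 153063954, both on the plus strand. The windows are chr18:59139784-59139883 and chrX:153794349-153794448 in GRCh38.p14.
SEC11C: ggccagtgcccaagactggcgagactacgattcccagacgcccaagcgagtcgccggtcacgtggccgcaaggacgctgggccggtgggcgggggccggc
SSR4: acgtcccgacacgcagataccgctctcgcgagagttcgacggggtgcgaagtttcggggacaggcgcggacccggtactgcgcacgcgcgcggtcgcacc

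**Figure D2:**
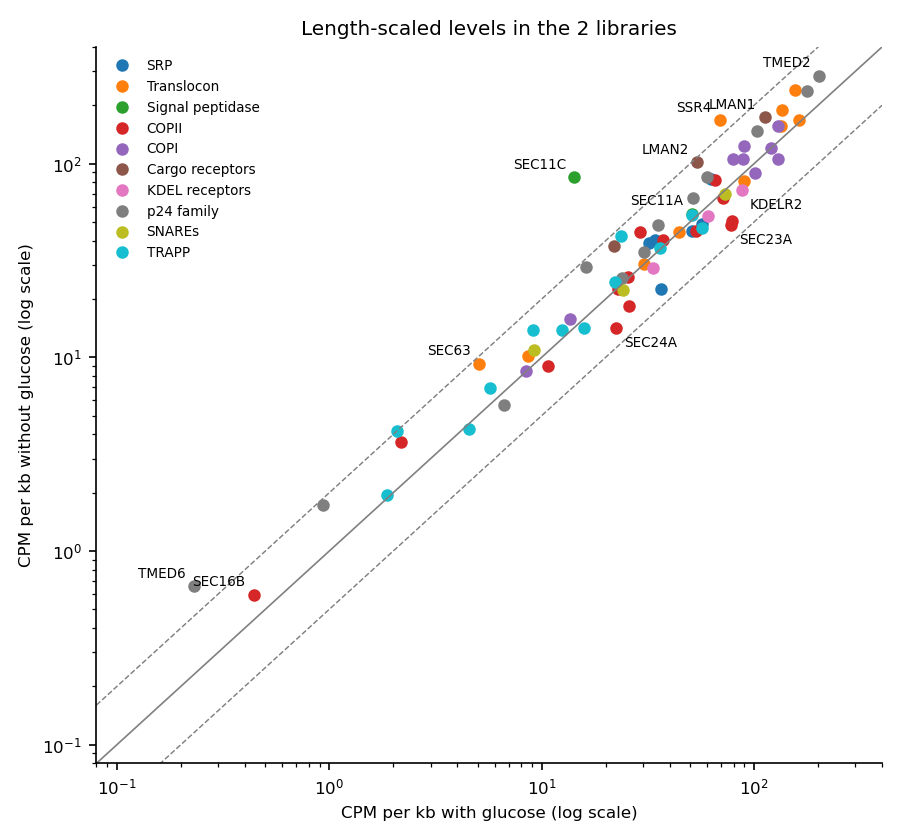
Levels per kilobase of gene model, in CPM per kb, with glucose (horizontal) and without (vertical), both on log scales, 1 point per measured member coloured by class; the solid line marks equal levels and the dashed lines 2-fold. SEC11C moves from 14.2 to 85.1 CPM per kb, past its paralog SEC11A at 50.9 and 55.2, and most other points lie between the dashed lines.

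COPII vesicles form at ER exit sites when the GTPase SAR1 recruits the inner coat of SEC23 and SEC24 and then the outer cage of SEC13 and SEC31. The 14 COPII members had a median log2 ratio of -0.06, with 0 called higher and 3 lower at 1.5-fold. Those were SEC23A (296 and 184 CPM), SEC24A (142 and 89.8 CPM) and SAR1A (242 and 154 CPM). Their log2 ratios lay at -0.68, -0.66 and -0.65, within the counting error of one another. The SEC24A and SAR1A calls were lost with upper-quartile scaling and with small RNA genes left out of the scaling. SEC23A kept its call under every scaling tried. SEC16A, the scaffold that marks exit sites, stood at 233 and 167 CPM (-0.48).

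Their paralogs were mixed. SEC23B, an alternative to SEC23A in the inner coat, stood at 108 and 164 CPM (0.61, interval 0.55 to 0.68). Within each library the ratio of SEC23B to SEC23A was 2.45-fold higher without glucose (interval 2.32 to 2.59). Per kilobase, SEC23B was 27.1% of the SEC23 level with glucose and 47.7% without, while the sum of both was 106 and 92.3 CPM per kb. SEC23 transcripts thus came near to an even split of the paralogs, in a slightly smaller total.

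The 4 SEC24 genes encode the cargo-binding subunits of the coat, each with its own range of cargo. SEC24C stood at 239 and 203 CPM (-0.24), SEC24B at 105 and 104 CPM (-0.02) and SEC24D at 150 and 162 CPM (0.11). SEC24A was the member of the family with the lowest ratio, and its share of the family level per kilobase was 16.5% with glucose and 11.6% without. SEC24D took 27.5% and 32.9%. Relative to SEC24A, SEC24D was 1.7-fold higher without glucose (interval 1.6 to 1.81) and SEC24B 1.56-fold (interval 1.45 to 1.67).

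SAR1B, the paralog of SAR1A needed for large lipoprotein cargo, stood at 71.2 and 59.7 CPM (-0.26), so both GTPase genes were lower. Their summed level was 89.7 CPM per kb with glucose and 59.3 without. In the outer cage SEC13, which also serves in the nuclear pore, stood at 115 and 145 CPM (0.33), and SEC31A at 302 and 281 CPM (-0.10). SEC31B had the highest ratio of the class, 9.98 and 16.8 CPM (0.75, interval 0.54 to 0.97), at a level per kilobase 18.2 times below SEC31A without glucose. Models of SEC31B share 17% of their 50-base runs with other genes. SEC16B had only 49 and 73 counts, and its interval spanned 0. SEC23IP, which binds the inner coat, stood at 108 and 110 CPM (0.03).

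**Figure D3:**
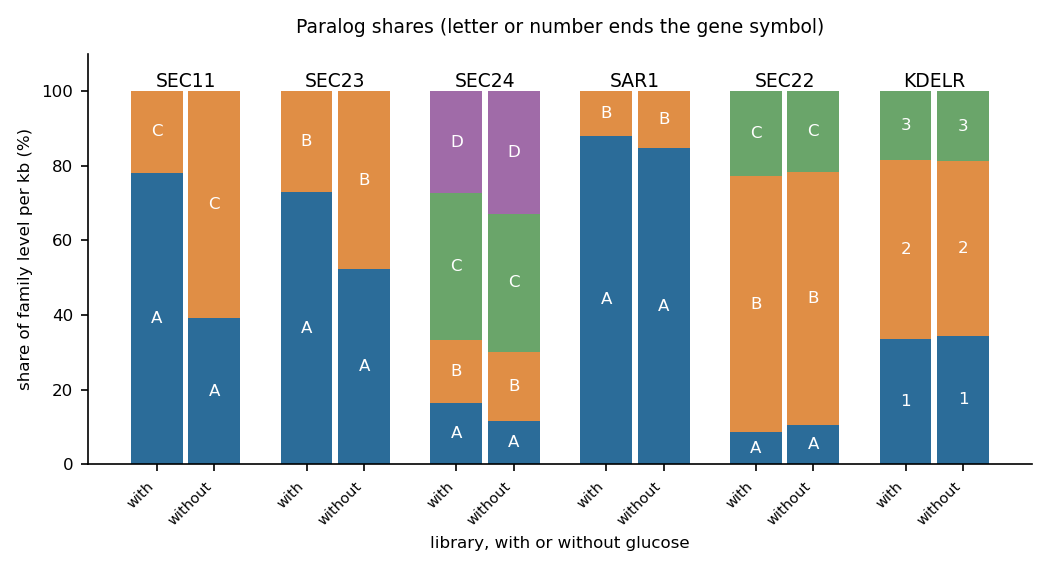
The share of each paralog in the summed level per kilobase of its family, in percent, with and without glucose, as stacked bars, 1 library each. SEC11C (21.8% and 60.7%) and SEC23B (27.1% and 47.7%) take larger shares without glucose, while the KDELR and SEC22 shares are close to equal in both libraries.

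The COPI coat, which buds from the Golgi, had a median log2 ratio of 0.22 over 9 members, and 0 of them were called at either bound. COPE, the epsilon subunit, had the highest ratio at 101 and 140 CPM (0.47), followed by COPZ1 at 150 and 198 CPM (0.40). COPG and COPA had 0.27 and 0.26. COPB1 stood at 419 and 420 CPM, ARCN1, the delta subunit, at 403 and 359 CPM (-0.16), and COPB2 at 409 and 336 CPM (-0.28). Subunits of a coat that is recruited as 1 unit thus lay on both sides of equal. The minor paralogs COPG2 (23.4 and 27.2 CPM) and COPZ2 (7.54 and 7.58 CPM) kept their place below COPG and COPZ1. COPG2 was 9.57% and 9.22% of the gamma level per kilobase.

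LMAN1 and LMAN2, lectin cargo receptors, and MCFD2, the partner of LMAN1, were all 3 called higher at 1.5-fold. LMAN2L, a paralog of LMAN2 outside the member rule, was called lower, at 49.5 and 27.5 CPM (log2 ratio -0.85, interval -0.97 to -0.72), so the lectin family did not go one way. LMAN1 (ERGIC-53) with its soluble partner MCFD2 exports glycoproteins such as clotting factors, and LMAN2 (VIP36) is a related mannose-binding lectin. LMAN2 stood at 98.6 and 186 CPM (1.88-fold, interval 1.8 to 1.97), MCFD2 at 103 and 177 CPM (1.72-fold, 1.64 to 1.8) and LMAN1 at 540 and 838 CPM (1.55-fold, 1.52 to 1.58). The LMAN1 interval lay below those of the others, and its call was lost with total-count scaling. None of the other 9 classes had all its members called. The ratio of MCFD2 to LMAN1 within a library was 1.11-fold higher without glucose (interval 1.05 to 1.16). MCFD2 overlaps TTC7A on the other strand, and without strand information their reads cannot be told apart. In all, 7 members have such an overlap, among them SEC61A2, COPA, COPG2, KDELR3 and TMED5.

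The KDEL receptors bind ER chaperones that reach the Golgi by their C-terminal signal and return them through COPI. KDELR1 stood at 94.4 and 83.3 CPM (-0.18, interval -0.26 to -0.10), KDELR2 at 249 and 208 CPM (-0.26, interval -0.31 to -0.21) and KDELR3 at 62.6 and 54.2 CPM (-0.21, interval -0.31 to -0.11). All 3 were slightly lower without glucose, and each interval lay below 0 and within 1.5-fold. Of all 14240 measured genes, 5200 had intervals below 0. KDELR3 overlaps DDX17 on the other strand, so its small difference is less certain. HSPA5 (BiP), a ligand of these receptors, stood at 756 and 10092 CPM. The receptors therefore did not follow this ligand in transcript level. Their shares of the family per kilobase were also close to equal, at 48.1% and 46.8% for KDELR2 and 18.4% and 18.7% for KDELR3.

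Proteins of the p24 family shuttle between ER and Golgi as complexes of alpha, beta, gamma and delta members and take part in COPI and COPII budding and in the export of lipid-anchored proteins. Of the 12 measured symbols, 11 had intervals wholly above 0, and the median log2 ratio was 0.48. Without the pseudogene and the readthrough gene these were 9 of 10 and 0.48. Among all 14240 measured genes, 5327 had intervals above 0, as did 3712 of the 8345 with at least 1000 counts. At 1.5-fold 1 was called higher and 0 lower. TMED2, the beta member, had the highest level per kilobase of all measured members, at 202 and 285 CPM per kb, and stood at 428 and 605 CPM (0.50). TMED10, the delta member, stood at 214 and 274 CPM (0.36).

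The alpha members TMED4 and TMED9 had log2 ratios of 0.52 and 0.40, and the gamma members TMED7 and TMED3 had 0.52 and 0.45. Beta, alpha, delta and these gamma members thus lay between 0.36 and 0.52. TMED1, a further gamma member, was the one called at 1.5-fold, with 21.8 and 39.5 CPM (1.81-fold, interval 1.64 to 2), but 42.9% of its 50-base runs also occur in GENCODE transcripts of DNM2, so its counts are uncertain. The models of the count tables do not overlap there. TMED5 lay lower, at 147 and 158 CPM (0.11), and TMED6 had only 6 and 19 counts (log2 ratio 1.52, interval 0.14 to 3.13). TMED8, which belongs to the family by name, stood at 6.46 and 5.5 CPM, with an interval that spanned 0.

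Some p24 symbols share sequence. The readthrough gene TMED7-TICAM2 (log2 ratio 0.21) shares 94.1% of its 50-base runs with other genes, mostly TICAM2 and TMED7, and the tables give more than 10 reads in only 1 of 3 TMED7 exons although TMED7 had 11615 and 18338 counts. TMED10P1, a pseudogene of TMED10 inside another gene, had 105 and 215 counts. These symbols are uncertain as single genes. Sharing of over 10% was found for 16 members in all, and the counts of each are uncertain in the same way. Besides those named with their share, they include SEC16B (57.7%), TRAPPC6B (53%), TRAPPC10 (43.1%), SEC24C (37.8%), TMED6 (30.9%), SRP19 (19%), TRAPPC4 (14.5%), TRAPPC5 (14.1%) and SEC22A (10.4%).

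SEC22 proteins are SNAREs, of which SEC22B drives fusion between ER and Golgi membranes. SEC22B stood at 133 and 127 CPM (-0.06), SEC22A at 31.4 and 37.2 CPM (0.25) and SEC22C at 49.5 and 45.7 CPM (-0.11). Neither bound was passed, and SEC22B was 68.6% and 67.8% of the family level per kilobase.

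TRAPP complexes tether incoming vesicles and activate Rab GTPases. The 12 symbols had a median log2 ratio of 0.12, with 1 called higher at 1.5-fold and 0 lower. TRAPPC2L, a core subunit, stood at 14.8 and 26.3 CPM (1.78-fold, interval 1.58 to 2.01). The paralogs TRAPPC6A and TRAPPC6B were at 1.65 and 3.29 CPM (0.99, interval 0.48 to 1.53) and at 30.3 and 46.4 CPM (0.61, interval 0.49 to 0.74). TRAPPC6A, at 46 and 101 counts, had the highest ratio of the class with too few counts to be called. TRAPPC1, another core subunit, had the lowest, at 48.9 and 40.3 CPM (-0.28). The subunits TRAPPC3, TRAPPC4 and TRAPPC5 had 0.09, 0.02 and 0.15, and TRAPPC8, TRAPPC9 and TRAPPC10 of the larger complexes had 0.15, 0.28 and -0.17. TRAPPC2 stood at 5.31 and 5.56 CPM, and its copy TRAPPC2P1 at 3.3 and 3.12 CPM. Of the core set, TRAPPC2L was thus higher while TRAPPC3 and TRAPPC4 lay near equal.

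Ratios in these libraries varied with gene length, so each member was set beside genes of its own length. The median log2 ratio of measured genes was 0.31 in the shortest of 10 length classes and -0.21 in the longest. Against the median of its own class, 46 of 74 members lay above and 28 below, with a median difference of 0.18. In the shortest 2 classes, with 14 and 11 members, the members' medians of 0.21 and 0.12 lay below those of all genes, 0.31 and 0.17. SEC11C and SSR4, at 775 and 631 bases, belong to the shortest class, in which 4.35% of genes were called higher at 2-fold. SEC63, at 6479 bases, belongs to the class with a median of -0.16, in which 2.32% were. Small RNA genes (snoRNA, scaRNA, microRNA) made up 5.82% and 7.98% of all counts. The part of length and of RNA make-up in the member ratios was not tested.

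**Figure D4:**
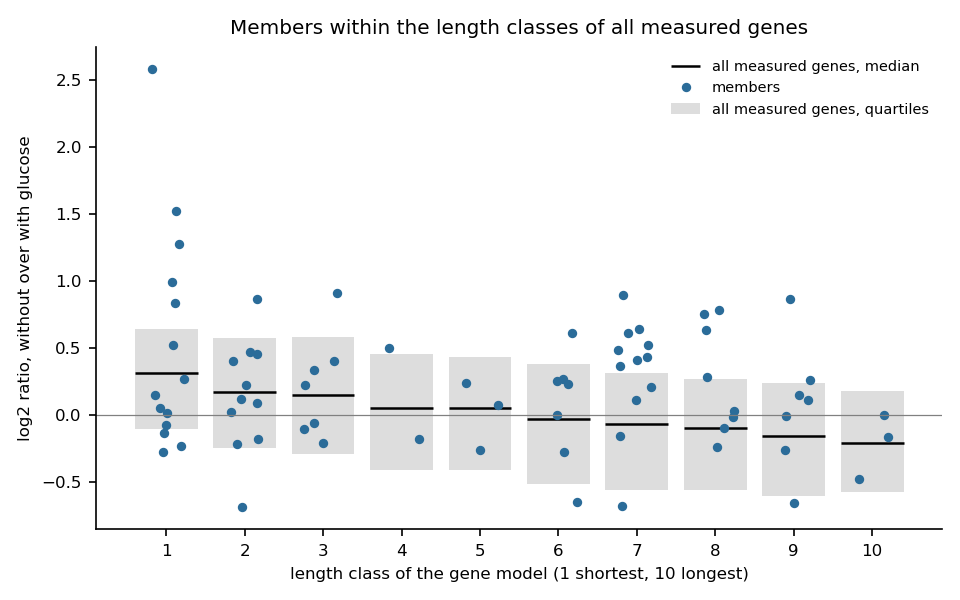
The log2 ratio of the 74 measured members (points, spread sideways within a class) by length class of the gene model, over the quartiles (grey bars) and medians (black lines) of all measured genes, with 1424 genes in each class. The medians of all genes run from 0.31 in the shortest class to -0.21 in the longest, and the members' median lies below that of all genes in classes 1 (0.21) and 2 (0.12 against 0.17) and above it most in class 7 (0.42 against -0.07).

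Promoter windows of 250 bases before the annotated start were found in the RefSeq table (GRCh38.p14) for 66 members. They were searched on both strands for 3 elements read by the ER stress factors. The ER stress response element (ERSE), CCAAT and CCACG spaced by 9 bases, was in 0 of the 66 windows and in 0.074% of all 35116 windows of the table, and the HSPA5 window holds 1. ERSE-II, ATTGG and CCACG spaced by 1 base, was in 0 and in 0.0513%. The UPRE core TGACGTGG was in 7 member windows (10.6%), against 0.612% of all windows and 0.768% of the 9369 windows of measured genes.

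The 7 windows are shown because the ratios of their genes can be set beside them, and capitals mark the core or its reverse complement. Each is given on the gene's strand, 5′ to 3′, in GRCh38.p14, with the core starting 112 bases before the start of SRP19 (chr5:112861160-112861197, plus strand), 17 before SEC62 (chr3:169966775-169966806, plus), 31 before SEC16B (chr1:177984293-177984330, minus), 179 before SEC24A (chr5:134648591-134648628, plus), 48 before COPB1 (chr11:14499837-14499874, minus), 163 before COPB2 (chr3:139389821-139389858, minus) and 46 before KDELR3 (chr22:38468035-38468072, plus).
SRP19: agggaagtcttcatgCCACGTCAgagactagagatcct
SEC62: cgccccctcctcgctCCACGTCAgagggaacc
SEC16B: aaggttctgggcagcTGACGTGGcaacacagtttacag
SEC24A: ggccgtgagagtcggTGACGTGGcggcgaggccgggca
COPB1: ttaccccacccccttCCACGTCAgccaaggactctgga
COPB2: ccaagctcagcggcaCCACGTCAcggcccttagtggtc
KDELR3: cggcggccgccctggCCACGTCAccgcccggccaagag

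Among the 7 genes with this core, log2 ratios were 0.43 for SEC16B, 0.27 for SRP19, 0.00 for COPB1, -0.01 for SEC62, -0.21 for KDELR3, -0.28 for COPB2 and -0.66 for SEC24A. None of them was called higher at either bound, and SEC24A was called lower at 1.5-fold. Of all measured genes, 3.75% were called higher at 2-fold, and 10.2% higher and 12.6% lower at 1.5-fold. With 7 genes, the counts cannot be told apart from these shares. A match is a description of the letters in these windows, and whether any factor binds there was not measured.

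Other genes of the pathway, outside the member rule, were taken from 9 further lists. Of their 113 measured genes, 4 were called higher and 0 lower at 2-fold, beside 3.75% and 6.20% of all measured genes, so the higher count is near the background. These counts hold CTAGE5, called higher, and leave out the separate gene model MIA2, which was called lower. At 1.5-fold 23 were called higher and 3 lower, beside 10.2% and 12.6% of all measured genes, and the median log2 ratio was 0.27. Those shares are also the background for the 1.5-fold counts of each list below. Among 14 translocon-associated and signal peptidase genes, with a median of 0.42, 3 were called higher at 2-fold and 4 at 1.5-fold. The 3 were HSPA5, its nucleotide exchange factor SIL1 (24.2 and 72.4 CPM, 2.99-fold, interval 2.75 to 3.27) and the membrane J-domain protein gene DNAJC1 (37.7 and 98.3 CPM, 2.61-fold, interval 2.43 to 2.8). These are chaperone genes of the ER lumen or membrane, as is SEC63 among the members, which was called at 1.5-fold only. TRAM1, a translocon gene and no chaperone, was also called at 1.5-fold only (491 and 973 CPM, 1.98-fold, interval 1.94 to 2.02).

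The oligosaccharyltransferase, which adds N-glycans at the translocon, had 8 of 13 genes called higher at 1.5-fold, 0 at 2-fold and 0 lower, with a median of 0.77. That was the highest median of the 9 lists, and higher than the 0.23 of the translocon members it sits beside. The list of tail-anchor insertion and ER membrane protein complex genes had a median of 0.36, with 2 of 17 called higher at 1.5-fold.

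Of 23 measured genes of ER exit sites and cargo export, 1 was called higher at 2-fold and 0 lower, and 5 higher and 1 lower (LMAN2L) at 1.5-fold, with a median of 0.24. CTAGE5, whose product works with that of MIA3 (TANGO1) in the export of large cargo such as collagen, had 416 and 2216 counts, 14.9 and 72.1 CPM (4.83-fold, interval 4.34 to 5.37). The list joins CTAGE5 and MIA2 as symbols of the same gene, but they were counted as separate gene models. MIA2 stood at 4.63 and 1.24 CPM (log2 ratio -1.91, interval -2.47 to -1.37). It was called lower at both bounds but is left out of the counts of this list. With MIA2 in place of CTAGE5, the list would lose its 2-fold higher call and gain a lower one. The 2-fold counts of this list therefore depend on that choice of symbol. ER-Golgi SNAREs and tethers had a median of 0.14, with 0 of 18 called at 2-fold and 1 called higher at 1.5-fold. The 12 genes that recruit COPI or run its coat cycle had a median of 0.10, with 0 called higher and 2 called lower at 1.5-fold. Both SRP receptor subunits passed no bound. Nor did the 4 measured genes of the list of TRAPP genes under older symbols, which also holds TBC1D20, not itself a TRAPP subunit. Of 10 measured genes for transcription factors of the pathway, their proteases and the ER stress sensor ERN1, with a median of 0.61, 3 were called higher at 1.5-fold.

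**Figure D5:**
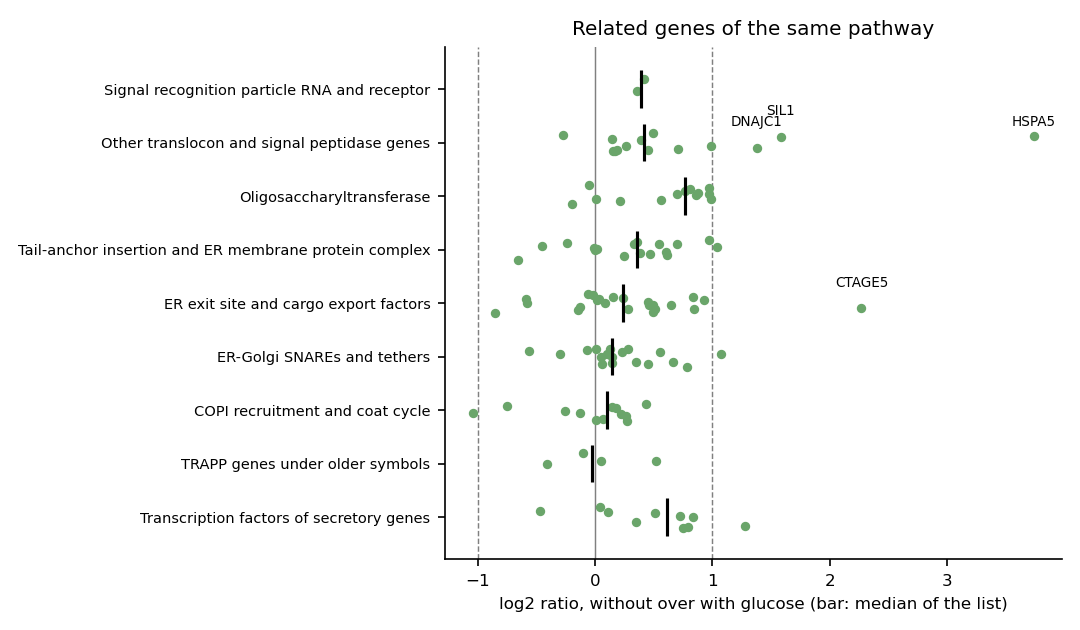
The log2 ratio of the 113 measured genes of the 9 related lists, 1 point per gene and a black bar at the list's median; dashed lines mark 2-fold, and the 4 genes called higher are named. The oligosaccharyltransferase list has the highest median at 0.77, and HSPA5 lies farthest out at 3.74.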

How the data were processed

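The authors deposited 1 table per library with 24364 rows, each a gene model with its place, length, RefSeq transcripts, whole-number count and RPKM, per the file headers. The deposited counts carry no normalization. The deposited RPKM, count per kilobase and per 1000000 reads per the file headers, was used for no comparison. The submitters' processing notes name hg19. For aligner, counter and strand use, nothing is stated in the labels or headers. The authors' number of exons with more than 10 reads was used as a description. Rows that repeat another symbol's place, length and counts (528) were dropped and counts summed by symbol.

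Libraries were scaled by TMM (edgeR 4.0.16, R 4.3.3) over the 14240 genes with at least 20 counts. Ratios are without over with glucose, without pseudocount, with exact 95% Clopper-Pearson intervals on the share of a gene's counts in each library. Ratios of 2 genes within a library carry Wald intervals. PCR copies of a molecule are counted as separate reads, so every interval covers counting error alone. A floor of 3 counts was set for zeros. With n = 1 no test was possible, and calls follow the bounds on the whole interval. The interval code was tested on simulated data. DESeq2 1.42.0 gave alternative size factors, and scipy 1.17.1 and pandas 2.3.3 ran under Python 3.11.15.

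The rule for values named members called at 1.5-fold, the highest and lowest of each class, paralogs and, of related lists, genes called at 2-fold. Other members of the complexes, SRPR, SRPRB, LMAN2L and TRAM1 were added after their values were seen. The members, lists and bounds were chosen with earlier results of these data known. CTAGE5 was preferred to MIA2 after the tables were seen. Sequence sharing is the percent of a gene's 50-base runs in GENCODE 29 transcripts that occur in another gene on either strand. Whether the shared runs lie in the counted gene models was not tested. Alternatives covered scaling, the count minimum, 1 CPM added, small RNA genes and the size bound. Protein comparisons that had been planned were not made here. The values of 1 marker gene are not reported here.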

Additional observations from a re-analysis of the deposited data

How the results depend on the processing

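The 5 overall results, the counts called higher and lower at 2 bounds and the median log2 ratio, gave 44 values under other settings, and 40 were close to those reported. The number called lower at 1.5-fold was 1 in place of 3 with upper-quartile scaling and 1 with small RNA genes left out of the scaling, where SAR1A and SEC24A were no longer called. It was 4 with total-count scaling and with DESeq2 size factors, where SRP9 was called as well. The number called higher at 1.5-fold was 14 with 1 CPM added to both libraries, judged by the ratio alone, in place of 9. With a bound of 3-fold, 1 member was called higher, SEC11C. Of the 84 values of the 12 named members, 78 stayed past their bound, 6 did not, and none changed sign. The count minimums could not change the ratio of a named member, so those values among the 84 were fixed in advance. With 1 CPM added, only the ratio was judged. SEC11C ranged from 2.48 to 2.62 and SSR4 from 1.21 to 1.31. The 10 class medians kept their sign under the other scalings and minimums, except that of SRP, which ranged from -0.03 to 0.07. KDEL receptors ranged from -0.26 to -0.17. Leaving out the pseudogenes and the readthrough gene was chosen after seeing the data. Scalings and minimums moved the median of all measured genes by at most 0.06. No paired analysis was possible because each condition held 1 library, and for the same reason none was left out in turn.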
